A study of Homo sapiens with 6 samples.

Results

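The genes described here build ribosomes: MYC, the subunits and factors of RNA polymerase I, and the nucleolar proteins that process ribosomal RNA and assemble the small and large subunits. A list of 41 genes was used, chosen with earlier results of these data known. Of them, 40 were read by a probe set that names that gene alone, out of 18132 genes measured this way. GNL3, the remaining one, is not analysed here. There were 6 arrays of cells labelled HCT-116, a colorectal carcinoma line described in the labels as high in Aurora-A and PLK-1. In 3 of them the cells had received AAPK and in the other 3 the vehicle DMSO. AAPK is a compound that the series title calls a dual inhibitor of the kinases Aurora A and PLK-1. The treatment field gives 10 µM and 48 h for all 6 samples, and the comparison asks how the compound changes gene expression.

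Ribosome production starts in the nucleolus. RNA polymerase I transcribes the ribosomal DNA into a long precursor, small nucleolar RNA-protein particles (snoRNPs) modify it, and assembly factors cut, fold and package it into both subunits. Growing tumour cells make ribosomes at a high rate, and MYC, a transcription factor, is known to raise many of these genes.

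The arrays of a group resembled each other more than those of the other group, with Pearson correlations over all probe sets of at least 0.9976 inside a group and at most 0.9954 across groups. Of 10 listed colon epithelial markers, several were low on all 6 arrays. EPCAM, an epithelial adhesion molecule, read between 3.20 and 3.52 log2 units over its 3 probe sets, and CDH1, E-cadherin, between 3.96 and 5.15 over 2. All probe sets of EPCAM, CDH1, KRT19, KRT20 and VIL1 had a mean below the lower quartile of the arrays, 5.12, whereas every probe set of KRT8 and KRT18, keratins of simple epithelia, lay above the upper quartile, 7.69. Of the other listed epithelial markers, CLDN4, CDX1 and CDX2 had means of 8.77, 7.16 and 5.84 on their brightest probe sets, not below that lower quartile. For CLDN4 and CDX1, 1 other probe set each had a mean below it. VIM, the mesenchymal filament vimentin, chosen after its level was seen, read between 12.12 and 12.59. The arrays thus go against the label for part of the listed colon epithelial markers, and the cells are called by their label below. Of 10 colon epithelial markers 1 rose, KRT8 at 0.17 (limma adjusted p = 0.0402), and 9 did not pass. None of 9 fibroblast, 6 endothelial or 7 blood cell markers passed the threshold in limma (0, 1 and 1 had an unadjusted p under 0.05). The part of these markers in the results below was not tested.

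With AAPK, 14 of the 40 members rose and 1 fell, while 25 did not pass the threshold of an adjusted p of 0.05 (limma, Benjamini-Hochberg adjustment over 18132 genes). Over the whole array 8.11% of genes were higher and 7.26% lower. That background includes many dim genes, whereas the members' median signal lay at percentile 76.4. Without genes under the median of signal, 1727 of 9066 genes were higher and 1310 lower, against 19 and 1 of 39 members. The changes were small: they ran from -0.18 to 0.44 on the log2 scale, with a median of 0.12 over the members against -0.02 over all genes. Read by the brightest probe set, NOP16 and WDR12, factors of the large subunit, had the largest rises among the members, at 1.35-fold and 1.30-fold. That order depends on the probe set. Averaged over all their probe sets, NOP16 and WDR12 were at 0.25 and 0.24. NOP58, DKC1, TSR1 and LYAR lay above them on that measure, at 0.34, 0.31, 0.28 and 0.26. The member that fell was NOB1, the nuclease that makes the last cut of the small subunit's RNA. For 21 of the 40 members all 3 AAPK arrays lay above all 3 DMSO arrays, and for 1 they lay below, where the array as a whole gave 14.9% and 17.1%. RNA of a bulk culture was measured, so fewer cells of a kind and less RNA per cell cannot be told apart.

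**Figure D1:**
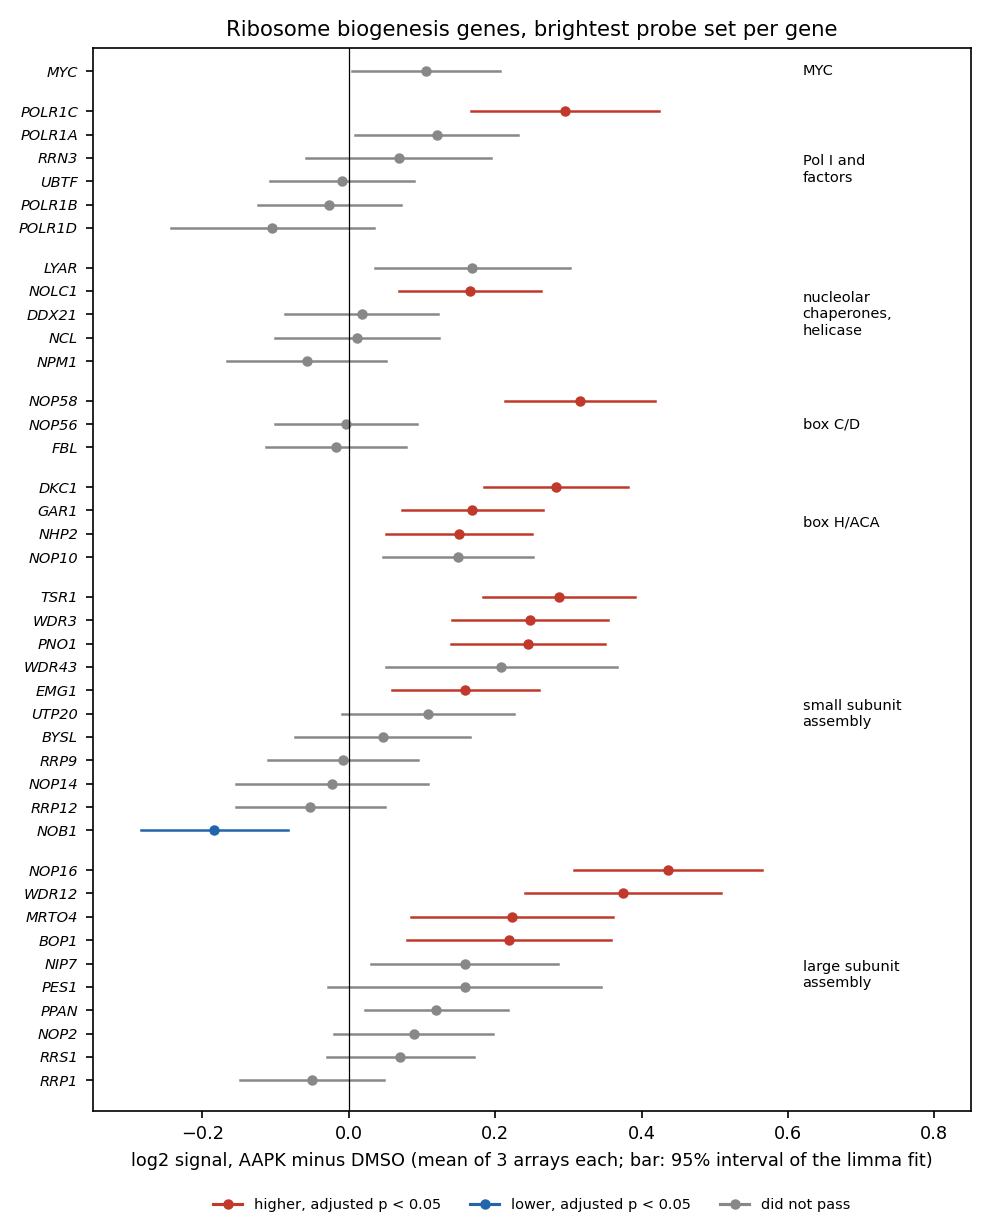
Change in log2 signal, AAPK minus DMSO, for each of the 40 measured members, grouped by role. Points are the difference of the means of 3 arrays each and bars the 95% interval of the limma fit. Red and blue mark an adjusted p under 0.05. The values run from -0.18 for NOB1 to 0.44 for NOP16.

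The sequences just before the start of a few members are shown because MYC and its partners are known to bind the E-box, whose letters are CACGTG on both strands. The RefSeq table of GRCh38.p14 held the 250 bases upstream of the annotated start for 35 of the 41 listed genes. NOP16 and WDR12 had the largest rises by the brightest probe set, NOB1 fell, and NOP10 and UTP20 are the members whose upstream sequence holds the motif, which is in capitals.
NOP16, chr5:176388599-176388848, minus strand: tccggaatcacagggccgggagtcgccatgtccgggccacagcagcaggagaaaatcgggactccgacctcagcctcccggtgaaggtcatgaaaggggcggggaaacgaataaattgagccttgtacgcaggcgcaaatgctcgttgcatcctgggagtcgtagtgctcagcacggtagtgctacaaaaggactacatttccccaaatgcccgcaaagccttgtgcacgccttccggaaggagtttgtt
WDR12, chr2:202911674-202911923, minus strand: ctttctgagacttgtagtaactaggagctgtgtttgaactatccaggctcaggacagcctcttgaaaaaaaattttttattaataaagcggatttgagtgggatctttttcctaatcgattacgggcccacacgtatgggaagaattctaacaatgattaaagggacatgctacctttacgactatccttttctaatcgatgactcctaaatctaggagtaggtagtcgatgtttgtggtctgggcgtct
NOB1, chr16:69754927-69755176, minus strand: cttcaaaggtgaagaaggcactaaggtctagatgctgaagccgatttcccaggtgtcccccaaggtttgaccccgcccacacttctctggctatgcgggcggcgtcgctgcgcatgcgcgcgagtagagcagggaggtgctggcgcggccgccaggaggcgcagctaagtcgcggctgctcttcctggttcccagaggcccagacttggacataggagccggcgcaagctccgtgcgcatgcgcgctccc
NOP10, chr15:34343137-34343386, minus strand: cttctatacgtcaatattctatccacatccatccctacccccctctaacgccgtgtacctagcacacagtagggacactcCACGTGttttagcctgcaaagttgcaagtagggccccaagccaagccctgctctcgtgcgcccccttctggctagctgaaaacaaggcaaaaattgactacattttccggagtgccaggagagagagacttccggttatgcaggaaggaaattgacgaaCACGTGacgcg
UTP20, chr12:101279855-101280104, plus strand: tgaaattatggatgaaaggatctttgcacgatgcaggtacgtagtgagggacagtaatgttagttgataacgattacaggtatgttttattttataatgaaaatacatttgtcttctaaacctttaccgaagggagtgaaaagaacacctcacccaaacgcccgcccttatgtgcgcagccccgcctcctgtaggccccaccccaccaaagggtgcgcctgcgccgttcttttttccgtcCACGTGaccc

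Counted from the start, the motif begins at positions -170 and -11 for NOP10 and at -10 for UTP20. It was found in 2 of 35 members, 5.71%, against 7.83% of 14425 measured genes with a sequence and 6.49% of all 27305 upstream sequences of the same length. Among the 11 members that rose and had a sequence, 0 held these letters. On the array as a whole 121 of 1260 genes called higher held them, 9.60%, and 113 of 1104 genes called lower, 10.2%. NOP10 and UTP20 had changes of 0.15 and 0.11 and did not pass (limma adjusted p = 0.0551 and 0.228). The counts cover only these exact letters in the stretch upstream of the annotated start. Sequence after the start, sequence further upstream and variants of the motif were not searched. Whether the members have MYC sites there was not tested.

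MYC itself read 9.30, 9.22 and 9.32 log2 units in DMSO and 9.37, 9.41 and 9.38 in AAPK. All 3 AAPK values lay above the DMSO values, but the change of 0.11 ± 0.05 (SE, n = 3 per group) did not pass (limma adjusted p = 0.168, 95% interval 0.004 to 0.21). With quantile normalisation it was 0.05. Among 14 measured genes of the MYC network, its dimerisation partners, their antagonists and regulators, 0 rose and 1 fell. That gene was MXD1, a MAX partner that opposes MYC, which read 5.85 ± 0.05 (SD, n = 3) in DMSO and 5.43 ± 0.05 in AAPK. Its change was -0.42 (limma adjusted p = 2.82e-04).

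Of the 6 members for RNA polymerase I and its initiation factors, 1 rose and 5 did not pass, read by the brightest probe set. POLR1C, a subunit of the assembly platform that polymerases I and III share, read 8.12, 8.00 and 8.15 in DMSO and 8.33, 8.47 and 8.35 in AAPK. The groups did not overlap, and the rise was 0.30 ± 0.06 (1.23-fold, limma adjusted p = 0.00620). Its other 2 probe sets read 0.16 and 0.29.

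POLR1A, the largest catalytic subunit, read 7.39, 7.43 and 7.44 in DMSO and 7.50, 7.63 and 7.50 in AAPK. Its groups were apart too, yet the change of 0.12 ± 0.05 did not pass (limma adjusted p = 0.152). The second catalytic subunit, POLR1B, read 7.53, 7.55 and 7.50 against 7.51, 7.53 and 7.46. Its groups overlapped, with a change of -0.03 ± 0.04, but 1 of its 5 other probe sets was lower at -0.22 (adjusted p = 0.00994 over all probe sets). UBTF, which bends ribosomal DNA for initiation, read 8.52, 8.49 and 8.49 against 8.46, 8.54 and 8.47, a change of -0.01 ± 0.04 (95% interval -0.11 to 0.09). RRN3, which links the polymerase to the promoter, read 7.31, 7.14 and 7.29 against 7.24, 7.35 and 7.35, a change of 0.07 ± 0.06 (95% interval -0.06 to 0.19). The UBTF and RRN3 groups overlapped.

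POLR1D, the other platform subunit, gave no single direction. The brightest probe set read 8.87, 8.74 and 8.86 in DMSO and 8.67, 8.84 and 8.64 in AAPK, with overlapping groups and a change of -0.10 ± 0.06. A second probe set was lower, from 7.95, 7.99 and 8.04 to 7.79, 7.61 and 7.69 (-0.30, adjusted p = 0.00671 over all probe sets). The third was higher, from 7.24, 7.17 and 7.32 to 7.60, 7.62 and 7.56 (0.35, adjusted p = 0.00185). Both of these were free of overlap between the groups, in opposite directions. Which transcripts these probe sets read was not examined.

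Outside the member list, 19 further polymerase I subunits and factors were measured, of which 6 rose and 1 fell. POLR2K and POLR2F, small subunits shared by polymerases I, II and III, rose by 0.45 and 0.37. POLR1F, a stalk subunit of polymerase I, fell by 0.18. Sorted by polymerase after the values were seen, 4 of 5 subunits common to polymerases I, II and III rose, the fifth, POLR2E, being at 0.11. Of the 6 subunits specific to polymerase I, 0 rose, 1 fell and the others ran from -0.13 to 0.13. Of the 19 measured polymerase III genes, 4 rose and 3 fell. POLR3G and GTF3A rose by 0.30 each, and POLR3F and POLR3GL, the latter the paralog that can take the place of POLR3G, fell by 0.33 each.

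**Figure D2:**
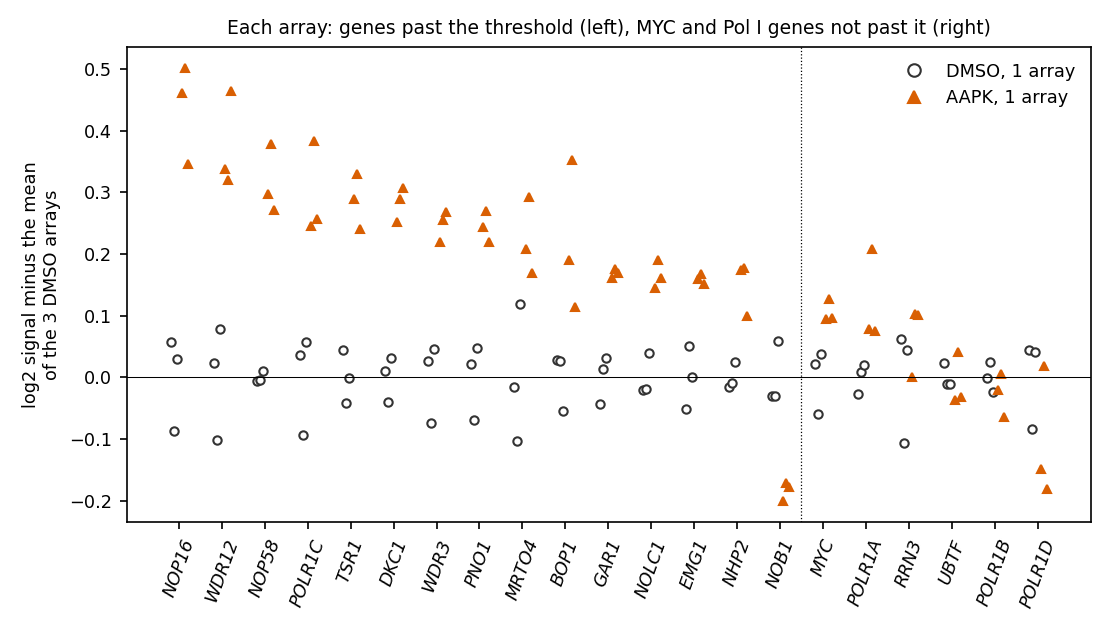
Log2 signal on each array minus the mean of the 3 DMSO arrays of that gene. Circles are DMSO arrays and triangles AAPK arrays. The 15 genes left of the dotted line passed the threshold and their groups do not overlap. Right of it stand MYC and 5 RNA polymerase I genes that did not pass.

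Among the nucleolar chaperones and helicases, 1 of 5 measured members rose. NOLC1, the phosphoprotein Nopp140 that shuttles snoRNPs, read 10.55, 10.55 and 10.61 in DMSO and 10.71, 10.76 and 10.73 in AAPK. Its groups were apart by a small margin, with a change of 0.17 ± 0.04 (1.12-fold, limma adjusted p = 0.0282), and its other 2 probe sets read 0.24 and 0.28. NCL (nucleolin), NPM1 (nucleophosmin) and DDX21, a helicase of the nucleolus, had changes of 0.01, -0.06 and 0.02, none of which passed. For NPM1 4 of 5 other probe sets had the opposite sign, and all lay between -0.05 and 0.05. LYAR, a zinc finger protein of the nucleolus, was next outside the threshold at 0.17 ± 0.06 (limma adjusted p = 0.0921), while its second probe set read 0.35 (adjusted p = 0.00888 over all probe sets).

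For the box C/D particle, which methylates ribosomal RNA on the ribose, the RNA of 1 of 3 protein genes rose. NOP58, a scaffold protein, read 10.18, 10.19 and 10.20 in DMSO and 10.49, 10.57 and 10.46 in AAPK. That is a rise of 0.32 ± 0.05 (1.24-fold, limma adjusted p = 0.00117), and its second probe set read 0.36. NOP56, its partner scaffold, and FBL, the methyltransferase fibrillarin, had changes of -0.004 and -0.02, with 95% intervals of -0.10 to 0.09 and -0.11 to 0.08. NOP56 had 2 of 3 other probe sets of the opposite sign, the highest at 0.07. Within each array NOP58 gained 0.32 ± 0.02 on NOP56, and the values of this difference did not overlap between the groups. The two-sided exact permutation p was 0.1, the smallest that 3 arrays against 3 allow. Adjusted over the 9 pairs of members compared this way, that p was 0.129. The pairs were chosen after their values were seen. NOP56 ran only from 11.03 to 11.09 over all arrays. That span is narrower than the gap of NOP58 between 10.20 in DMSO and 10.46 in AAPK. Their difference therefore could not overlap between the groups, so its p adds nothing to the call on NOP58.

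For the box H/ACA particle, which converts uridine to pseudouridine, the RNA of 3 of 4 protein genes rose. DKC1 (dyskerin), the enzyme, read 9.96, 9.91 and 9.98 in DMSO and 10.20, 10.24 and 10.26 in AAPK. This rise of 0.28 ± 0.04 (1.22-fold, limma adjusted p = 0.00180) was the largest of the 4 genes, and the second probe set read 0.34. GAR1 read 7.79, 7.85 and 7.86 against 8.00, 8.01 and 8.00, a rise of 0.17 ± 0.04 (limma adjusted p = 0.0250). NHP2 and NOP10, both small core proteins, had almost equal changes on either side of the threshold. NHP2 rose by 0.15 ± 0.04 (limma adjusted p = 0.0470) and NOP10 was at 0.15 ± 0.05 (limma adjusted p = 0.0551), and for both the AAPK arrays lay above the DMSO arrays. Of 12 genes for other snoRNP proteins and assembly factors, 1 rose, that of the helicase RUVBL1 at 0.23, and 0 fell.

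Of the 11 small-subunit assembly members, 4 rose and 1 fell. TSR1, a GTPase-like factor of the late pre-subunit, read 8.63, 8.55 and 8.59 in DMSO and 8.88, 8.92 and 8.83 in AAPK, a rise of 0.29 ± 0.05 (1.22-fold, limma adjusted p = 0.00227). WDR3, a propeller protein of the early processome, read 8.00, 7.90 and 8.02 against 8.19, 8.23 and 8.24, a rise of 0.25 ± 0.05 (limma adjusted p = 0.00602). PNO1, an RNA-binding protein that holds the maturing end, read 7.75, 7.66 and 7.77 against 7.97, 7.99 and 7.94, a rise of 0.24 ± 0.05 (limma adjusted p = 0.00602). In all 3 genes the groups were apart, and each other probe set of them had the same sign. EMG1, a ribosomal RNA methyltransferase, rose by 0.16 ± 0.05 (limma adjusted p = 0.0389). Its 4 other probe sets read 0.18, 0.12, 0.01 and -0.06, those at 0.01 and -0.06 with low mean signals of 3.63 and 3.77. The mean over all EMG1 probe sets was 0.08 (adjusted p = 0.163).

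NOB1 read 9.62, 9.62 and 9.71 in DMSO and 9.45, 9.48 and 9.47 in AAPK. All 3 AAPK arrays lay below the DMSO arrays, and the fall was 0.18 on the log2 scale (-0.18 ± 0.05, limma adjusted p = 0.0204, 1 probe set). PNO1 is the partner that NOB1 binds on the pre-subunit. Within each array PNO1 gained 0.43 ± 0.03 on NOB1, with no overlap between the groups (two-sided exact permutation p = 0.1, 0.129 adjusted over 9 pairs). The pairs were chosen after their values were seen. As PNO1 alone lay higher and NOB1 alone lower without overlap, their difference could not overlap, so its p adds nothing to their calls. The other 6 small-subunit members did not pass. WDR43 was highest among them at 0.21 ± 0.07 (limma adjusted p = 0.0792; 0.12 without DMSO replicate 3) and RRP12 lowest at -0.05, with 0.04 and 0.16 on its other probe sets. Among 46 measured further factors of the small subunit, 13 rose and 1 fell, with a median change of 0.08. IMP3, a protein of the U3 particle, rose by 0.49 and UTP3 by 0.45, and UTP18, a processome subunit, fell by 0.16.

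In large-subunit assembly 4 of 10 members passed the threshold, all upward. NOP16 read 8.95, 8.81 and 8.93 in DMSO and 9.36, 9.40 and 9.24 in AAPK. Its rise was 0.44 ± 0.06 (limma adjusted p = 6.51e-04), with 0.41 and -0.08 on its other probe sets, the latter with a mean signal of 5.60. WDR12 read 7.67, 7.54 and 7.73 against 7.98, 7.97 and 8.11, a rise of 0.37 ± 0.06 (limma adjusted p = 0.00209), with 0.30 and 0.04 on its other probe sets. WDR12 forms the PeBoW complex with BOP1 and PES1, which is needed to mature the large subunit's RNA. BOP1 read 8.15, 8.15 and 8.07 against 8.31, 8.48 and 8.24, a rise of 0.22 ± 0.06 (limma adjusted p = 0.0404). PES1 read 7.73, 7.78 and 7.83 against 7.98, 8.11 and 7.73. AAPK replicate 3 lay within the DMSO range, and the change of 0.16 ± 0.08 did not pass (limma adjusted p = 0.267). Without that array it was 0.26 (adjusted p = 0.0208), and without AAPK replicate 2 it was 0.07 (adjusted p = 0.656). The change of WDR12 exceeded that of PES1 by 0.22 (95% interval -0.24 to 0.68).

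MRTO4, which prepares the site of the ribosomal stalk, read 7.95, 7.86 and 8.08 in DMSO and 8.17, 8.25 and 8.13 in AAPK. The groups were apart by a narrow margin and the rise was 0.22 ± 0.06 (limma adjusted p = 0.0356), with 0.04 on the other probe set and 0.13 as the mean of both (adjusted p = 0.0689). The other 5 members ran from -0.05 for RRP1 to 0.16 for NIP7, and NIP7 had -0.10 on its second probe set and 0.03 as the mean of both. NOP2, a methyltransferase of the large ribosomal RNA, was at 0.09, RRS1 at 0.07 and PPAN at 0.12. Of 51 measured further large-subunit factors, 12 rose and 1 fell, with a median of 0.05. GTPBP4, a nucleolar GTPase, rose by 0.39 and LAS1L, part of a processing endonuclease, by 0.32. RSL24D1, which holds a place on the maturing large subunit, fell by 0.44.

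**Figure D3:**
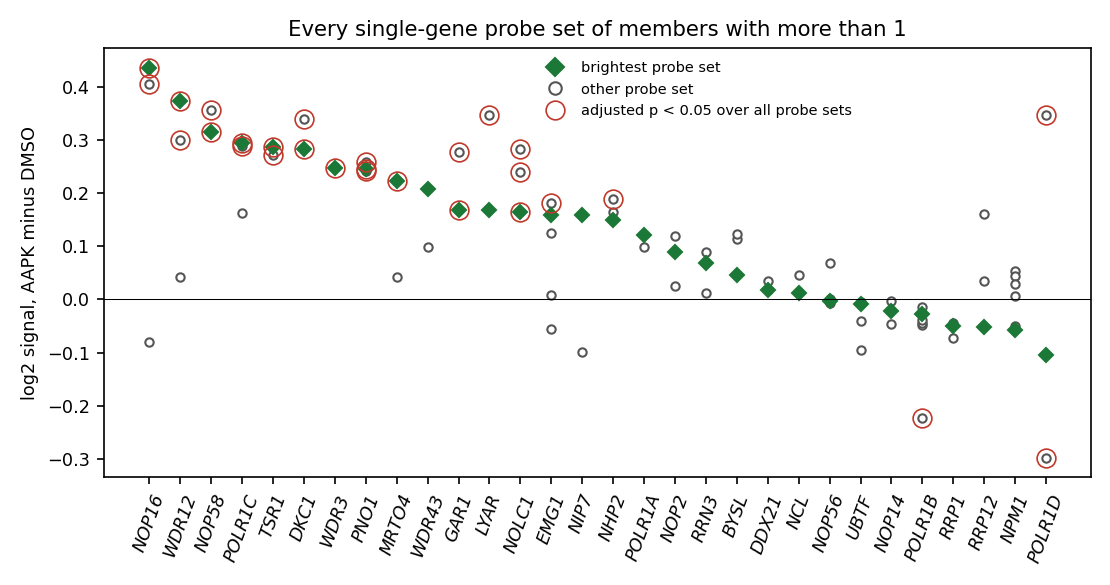
Change in log2 signal, AAPK minus DMSO, of every single-gene probe set for the 30 members with more than 1. Diamonds are the brightest probe set, circles the others, and red rings an adjusted p under 0.05 over 44988 probe sets. POLR1D has rings at -0.30 and 0.35.

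The members had 99 single-gene probe sets in all, of which 26 were higher and 3 lower, against 7.13% and 5.82% of all 44988 such probe sets. Beside the brightest one there were 59 others for 30 members. Of these, 47 had the sign of the brightest, and for 23 of the 30 members all did. The 3 lower ones belonged to NOB1, POLR1B and POLR1D.

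The remaining lists of the pathway differed in their counts. Of 26 measured genes of the RNA exosome and RNase MRP, which trim and cut the precursor, 6 rose and 1 fell, with a median of 0.01. EXOSC6 and EXOSC9, subunits of the exosome ring, rose by 0.44 and 0.31, and RPP25, a protein of RNase MRP, fell by 0.39. Of 66 measured ribosomal protein genes, 3 rose and 2 fell, with a median of -0.02, as over all genes. Their changes were positive for 33.3%, against 42.6% of all genes. For 11 of the 66 all AAPK arrays lay above the DMSO arrays and for 21 below, against 14.9% and 17.1% of all genes. Their median signal lay at percentile 99.7. RPL36AL and RPL35A rose by 0.74 and 0.38, and RPL7 and RPL10A fell by 0.18 and 0.17. Because ribosomal protein genes have many near-identical copies, signal may be shared between them, and 14 of the 80 listed genes had no probe set naming them alone.

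**Figure D4:**
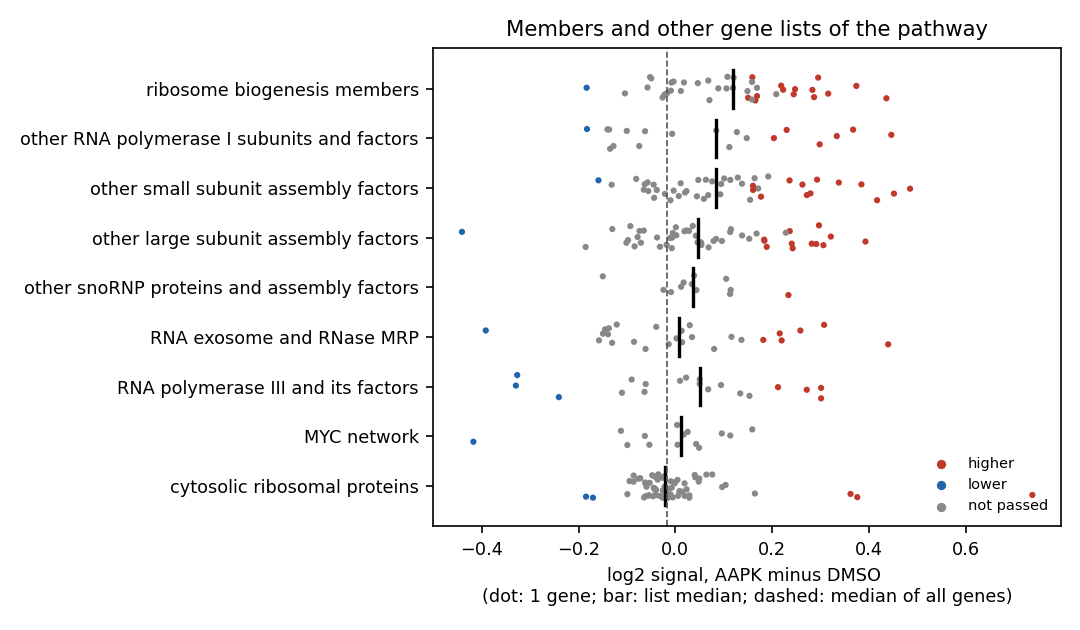
Change in log2 signal, AAPK minus DMSO, of the members and of 8 other gene lists of the pathway. Each dot is 1 gene, the black bar the median of its list and the dashed line the median of all genes, -0.02. The members' median is 0.12 and that of the ribosomal proteins -0.02.

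Some features of the genes that the list did not use were more frequent among the members. The shares are set against all measured genes, not against genes of similar signal. In the RefSeq annotation, 21 of 35 members, 60.0%, had a neighbour that starts on the other strand within 1000 bases upstream, against 18.9% of 14425 measured genes. Of 15 pairs in which both genes were measured, the neighbour was higher in 1 and lower in 2. Among 7 members that rose and had a measured neighbour of this kind, 1 neighbour rose, GDAP2 beside WDR3 at 0.19 (limma adjusted p = 0.0481), and 0 fell. NOP16 rose by 0.44, and HIGD2A, which starts 153 bases away, was at 0.10 (limma adjusted p = 0.279). BYSL, a small-subunit factor, was at 0.05, whereas its neighbour MED20, a Mediator subunit, fell by 0.30.

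Small nucleolar RNA genes lay within the span of 8 of the 40 measured members, 20.0%, against 3.01% of 18112 measured genes, strand not considered. Of these 8 host genes, NOP58, DKC1 and TSR1 rose, 37.5%, near the 35.0% of all 40 measured members. NCL, NOP56, WDR43, UTP20 and PPAN did not pass. Among all 545 such host genes, 59 were higher and 54 lower, 10.8% and 9.91%.

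How far the calls rest on single arrays differed by gene. The calls on NOP16, WDR12, NOP58, POLR1C, TSR1, DKC1 and PNO1 held in all 15 alternatives, and that on WDR3 in all but the probe set with the largest spread. Leaving out 1 array gave 8 to 12 members higher. The count was 8 without AAPK replicate 1 or 2 and 9 without DMSO replicate 1. For NOB1 the call was lost without DMSO replicate 3 (-0.15, adjusted p = 0.0704), AAPK replicate 1 (adjusted p = 0.0768) or AAPK replicate 2 (adjusted p = 0.0514). The calls on NOLC1, NHP2, GAR1, EMG1, BOP1 and MRTO4 were all lost without DMSO replicate 1, without AAPK replicate 1 and without AAPK replicate 2. Leaving out DMSO replicate 2 ended those on NOLC1, NHP2, BOP1 and MRTO4, DMSO replicate 3 those on NHP2, EMG1 and BOP1, and AAPK replicate 3 those on NOLC1, GAR1 and EMG1. In these fits the changes ran from 0.13 to 0.23 and the adjusted p from 0.0548 to 0.161. With quantile normalisation NOLC1, NHP2 and EMG1 were at 0.10, 0.08 and 0.10 and did not pass (adjusted p = 0.152, 0.281 and 0.232). LYAR passed without DMSO replicate 2 (0.22, adjusted p = 0.0438). WDR43 passed without DMSO replicate 1 (0.27, adjusted p = 0.0469), whereas without DMSO replicate 3 it was at 0.12 (adjusted p = 0.185). Over the members the median change was 0.09 without AAPK replicate 2 and 0.14 without AAPK replicate 3.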

How the data were processed

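Per the labels' protocols, Trizol was used to extract total RNA from 6 samples labelled HCT-116, and biotin was added in an in vitro transcription step before hybridisation to Affymetrix arrays. The authors deposited 1 log2 signal value per probe set and array. The log2 scale was inferred from the range of the values, 2.83 to 14.25. Background correction, normalisation and probe summary: not given in the sources used here. The arrays have nearly the same quartiles, and whether a change shared by most genes took place was not tested, so each change is read relative to the bulk of the array.

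The platform's gene table named exactly 1 gene symbol for 44988 of 49395 probe sets, and the one with the highest mean over all 6 arrays stood for each of 18132 genes. AAPK was compared with DMSO in limma 3.58.1 under R 4.3.3, with group as the only term, two-sided, and Benjamini-Hochberg adjustment over all 18132 genes at a threshold of 0.05. All 6 arrays entered the fit, which was tested on simulated data. Errors are the SE of that fit unless named SD; that of a difference between 2 members is from its spread over the arrays. Whether the 3 samples of a group were separate cultures is not in the labels, so the p-values cover the spread between samples only, and that may be technical. The number of arrays limits the precision.

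The members and the other gene lists were chosen with earlier results of these data known. MYC and the RNA polymerase I genes are given with every array, as are 12 other members, those that passed with the largest changes. Named too are the 3 called members with the smallest change, the 3 members next outside the threshold, members whose probe sets disagree in sign, and the 2 called genes with the largest change in each direction of each other list. Upstream sequences are those of RefSeq, GRCh38.p14, the 250 bases before the annotated start. The 15 alternatives were quantile normalisation, median centring, 2 filters on dim genes, averaging each gene's probe sets, the probe set with the largest spread, an intensity trend, array weights, the replicate number as a block and leaving out each array. Same-numbered arrays did not deviate together (r = -0.02, -0.23 and -0.05 over all genes), so the numbers were not taken as pairs.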

Additional observations from a re-analysis of the deposited data

Results flagged for a closer look

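Some control probe sets for ribosomal RNA, which no gene comparison used, differed between the groups, in both directions. The set for the 5′ part of the 28S RNA read 9.78, 9.56 and 9.77 log2 units in DMSO and 10.18, 10.32 and 10.26 in AAPK, a difference of 0.56 ± 0.07. The set for its middle part read 9.99, 9.83 and 9.92 against 10.40, 10.45 and 10.43, a difference of 0.51 ± 0.05 (limma adjusted p = 5.49e-04 and 2.52e-04 over 49395 probe sets). Both lay above the control arrays, which is why they are given here. The third set of the same RNA was at -0.13 (adjusted p = 0.245), and of the 3 sets for the 18S RNA one was lower at -0.41 (adjusted p = 0.00228). Sets for the same RNA thus disagreed, and whether they read its amount was not tested.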

How the results depend on the processing

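The count of members called higher was 14, and between 11 and 19 under the 8 alternatives of scaling, filter, probe set and variance. With the replicate block it was 9, with 0 members lower. Leaving out 1 array gave 8 to 12 members higher and 0 to 1 lower. Of the genes of the other lists, 45 were higher and 10 lower. The lower count was 21 with an intensity trend, 17 with array weights, 6 with the replicate block and 5 to 10 with 1 array left out, and the higher count ran from 31 to 53 over all 15 alternatives. POLR1D turned from -0.10 to 0.35 under the choice of the most variable probe set, as a different probe set is read there. The cause of the other shifts was not tested, though the replicate block and the left-out arrays leave fewer degrees of freedom. Samples shared only a number: 0 of 3 DMSO arrays correlated best with their own number. UTP20 lies under the median of signal and has no value with that filter.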
